A study of Mus musculus with 5 samples.

Results

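The transcription factors that maintain blood stem cells, and that leukemias reuse, were examined at the level of CpG methylation in mouse acute myeloid leukemia (AML). The set comprised 10 genes, *Meis1*, *Pbx3*, *Mecom*, *Prdm16*, *Tal1*, *Lyl1*, *Lmo2*, *Erg*, *Hlf* and *Myb*, taken by symbol from the 21755 protein-coding genes of the GENCODE vM21 annotation (GRCm38, autosomes and X). All 10 had enough calls to be tested in their promoter and gene body. The question was whether methylation at these loci differed between leukemias with intact and with deleted *Tet2*.

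Methylation was measured by whole-genome bisulfite sequencing of AML blasts from 5 C57BL/6 bone marrow samples, 2 labelled Cebpa-/p30 Tet2+/+ (libraries 23 and 24) and 3 labelled Cebpa-/p30 Tet2-/- (libraries 5, 7 and 8). Every leukemia, the controls included, therefore carried a lost *Cebpa* allele and an allele that makes only p30, the short isoform of the myeloid factor CEBPA. Per the methods of the study, floxed alleles were recombined by the interferon-responsive *Mx1-Cre* after transplantation of marrow from individual donors into irradiated recipients, and live donor-derived cells without T, B and erythroid surface markers were sorted from moribund mice. The age of each leukemia is not given in the sources used here.

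Each library held 63111735 to 110752967 calls over 21353092 CpG dyads (the cytosines of both strands added), which is 2.96 to 5.19 calls per dyad. A methylation level is the methylated calls as a percentage of all calls in a region, and a difference between levels is given in percentage points. Around the 5′ end of the last *Tet2* exon (chr3:133467690-133468690, 15 dyads) coverage was 59.9% and 91.8% of that over the whole gene in the Tet2+/+ libraries and 7.38% to 10.8% in the Tet2-/- libraries, so the labelled genotypes were separated. Promoters of 5 T cell genes averaged 68.6% to 85.1% methylation and those of 5 B cell genes 49.7% to 65.0%, against 14.7% to 19.4% for 8 myeloid genes, of which *Spi1*, *Prtn3*, *Mpo* and *Ctsg* lay under 20% in every library. Of the other myeloid genes *Csf3r* had 5.21% to 24%, *Elane* 33.3% to 53.4% and *Itgam* 31.6% to 41.0%. *Cebpe*, a granulocyte factor, was the only marker promoter past the threshold, at 2.92% and 2.43% in Tet2+/+ against 9.58%, 21.5% and 27.0% in Tet2-/- (16.7 points, edgeR adjusted p = 0.0409). Its edgeR adjusted p was 0.0152 without library 5, 0.0949 without library 7 and 0.0931 without library 8. Without library 23 or 24, which leaves 1 Tet2+/+ library, the difference was 16.9 and 16.4 points. Library 5 was the only library that could be left out with the promoter still past the threshold. With limma on all libraries the adjusted p was 0.0274, and 0.0606 after subtraction of the library medians. The B cell gene *Cd79b* was low (16.3% to 32.5%). Promoters of 4 erythroid genes averaged 30.8% to 42.5% and those of 3 genes not used in blood 55.2% to 69.0%, while *Ptprc*, the pan-leukocyte gene, had 18.7% to 33.7%. In bulk DNA a level is an average over all cells and both alleles.

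TET2 oxidizes 5-methylcytosine and so opens the way to its removal, mostly at enhancers and at the borders of unmethylated promoters. MEIS1 and PBX3 are TALE homeodomain proteins that bind DNA together with HOX factors, and MECOM and PRDM16 are related zinc-finger proteins needed for stem cell maintenance. TAL1 and LYL1 are basic helix-loop-helix factors that join the adaptor LMO2 on DNA, ERG is an ETS factor, HLF is a bZIP factor characteristic of stem cells, and MYB drives progenitor proliferation. CpG-rich promoters of active genes are usually unmethylated, and the bodies of genes are usually highly methylated, apart from enhancers within them.

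No promoter of the 10 genes passed the test, although across the genome 1.07% of 19455 promoters did, almost all of them higher in Tet2-/- (edgeR quasi-likelihood test, two-sided, Benjamini-Hochberg adjusted p under 0.05 over all promoters). At an unadjusted p under 0.05 edgeR had 2 of the 10, against 18.1% of all promoters, and limma had 0, against 3425 of 19455. After adjustment limma called 0 of the 10, against 0.930% of all promoters. The promoters, taken as 1 kb on each side of the annotated 5′ end of the gene, fell into 4 that were under 10% in every library, 2 that were over 60% in every library, and 4 between. The mean over the 10 promoters was 23% and 23.7% in the Tet2+/+ libraries and 25.9%, 25.4% and 25.5% in the Tet2-/- libraries. The groups did not overlap, at 23.3% ± 0.482 (SD, n = 2) against 25.6% ± 0.289 (n = 3), a difference of 2.24 points with an exact two-sided permutation p of 0.1, which is the smallest that the 10 splits of 5 libraries allow. The median difference of the members was 1.24 points, against 2.22 points for all promoters, and 7 of 10 were positive, against 76.7% of all promoters.

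The promoter of *Meis1*, the HOX cofactor, was unmethylated in all leukemias, at 2.66% and 1.33% in Tet2+/+ and 3.49%, 2.19% and 3.86% in Tet2-/- (chr11:19017985-19019985, 101 dyads). *Myb* lay at 0.723% and 1.84% against 0.443%, 1.01% and 1.46%. *Lyl1* had 0 methylated calls of 155 and of 169 in the Tet2+/+ libraries, which allows a level of up to 1.94% and 1.78%, and 0.719%, 2.58% and 0.606% in the Tet2-/- libraries. *Tal1* lay at 6.08% and 7.76% against 7.11%, 6.41% and 8.33%. The groups overlapped in *Meis1*, *Myb* and *Tal1*, and in *Lyl1* every Tet2-/- value lay above the Tet2+/+ values, but only that of library 7 exceeded the counting limit of the Tet2+/+ libraries (difference 1.30 points, edgeR adjusted p = 0.183). These 4 starts differed by −0.309 to 1.30 points, with adjusted p of 0.183 to 0.952.

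At the annotated 5′ ends of *Mecom* and *Lmo2* methylation was high. The 5′ end of *Mecom*, used by a non-coding transcript, had 81.3% and 68.2% in Tet2+/+ and 87.4%, 89.1% and 83.1% in Tet2-/-, without overlap but short of the threshold (difference 11.8 points, edgeR adjusted p = 0.246), and the difference was 5.21 points without library 24 and 18.3 points without library 23. The distal start of *Lmo2* had 71.6% and 68.4% against 72.8%, 88.5% and 70.6%, where library 7 alone stood apart (difference 7.30 points, adjusted p = 0.590). For *Mecom* and *Lyl1* the Tet2-/- libraries all lay above the Tet2+/+ libraries, which is 2 of 10 promoters, against 32.8% of all promoters.

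*Pbx3*, *Hlf* and *Erg* had intermediate promoter levels, and in every library the 1 kb before the start was more methylated than the 1 kb after it. *Pbx3* lay at 20% and 25.4% in Tet2+/+ and 21.5%, 17.2% and 20.4% in Tet2-/- (difference −2.99 points, edgeR adjusted p = 0.749). *Hlf* had 17.1% and 22.1% against 15.4%, 18.6% and 33.3%, and *Erg* had 17.5% and 7.84% against 9.69%, 19.0% and 17.0%. In each of these 3 genes the groups overlapped, and the differences in *Hlf* (2.84 points) and *Erg* (2.54 points) were smaller than the standard deviations among the Tet2-/- libraries, 9.56 and 4.89 points.

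**Figure D1:**
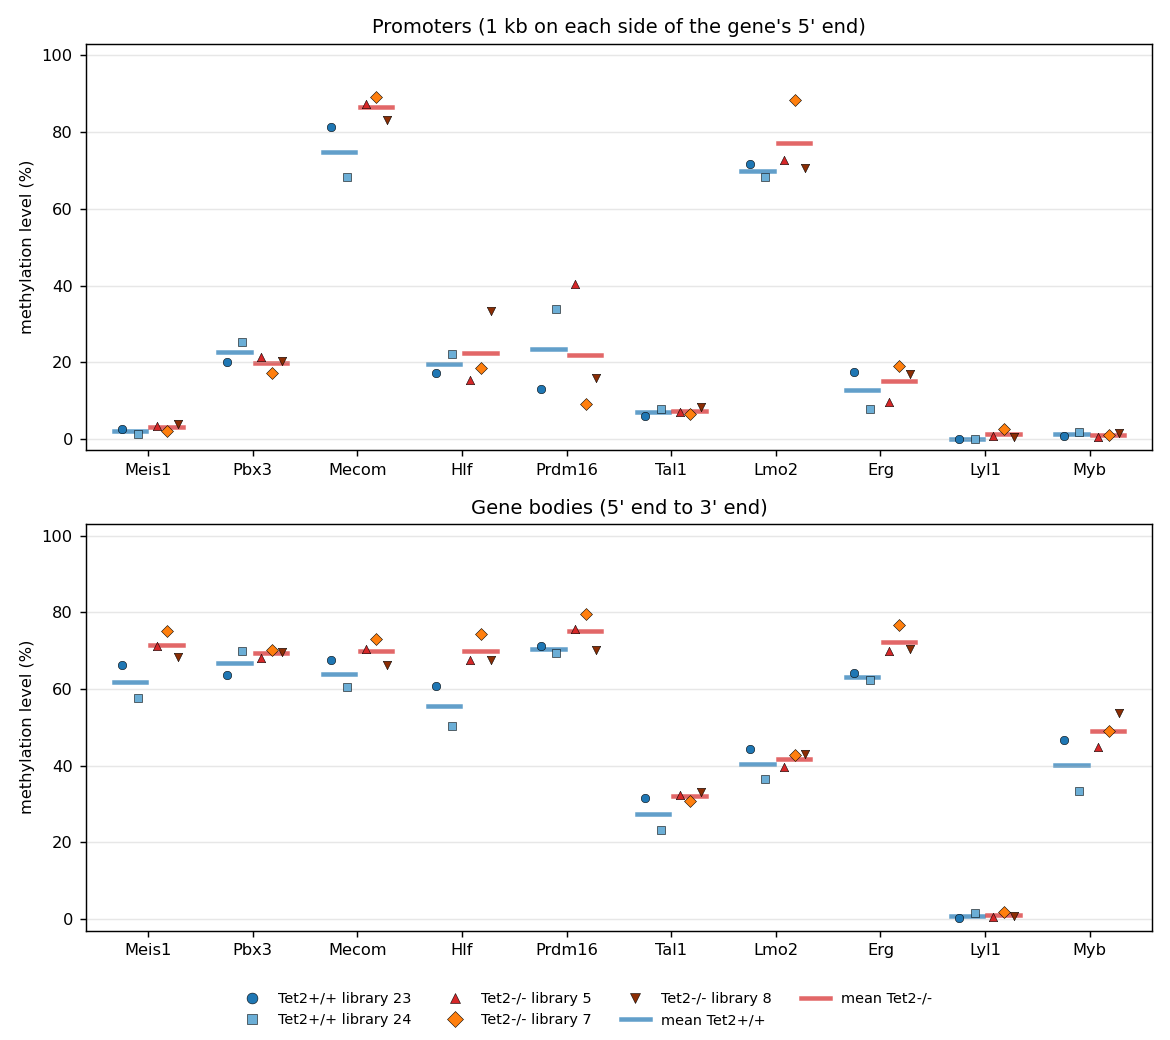
Methylation level (%) of the 10 genes in each of the 5 libraries, in promoters (upper panel) and gene bodies (lower panel), with points for libraries and horizontal bars for the group means. Promoters range from 0% (*Lyl1*) to 89.1% (*Mecom*) with the groups mostly intermixed, whereas the mean of every gene body is higher in Tet2-/-, by 0.10 points in *Lyl1* to 14.2 points in *Hlf*.

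*Prdm16* differed among libraries within each genotype rather than between genotypes. Its promoter, the richest in CpGs of the 10 (228 dyads, chr4:154635873-154637873), was methylated at 13.1% (95% Wilson interval 10.3 to 16.4) in library 23 and 33.9% (29.9 to 38.1) in library 24 of Tet2+/+. In Tet2-/- it had 40.4% (37.2 to 43.6) in library 5, 9.13% (7.65 to 10.9) in library 7 and 16.0% (12.7 to 19.9) in library 8. Libraries 24 and 5, 1 of each genotype, thus stood above the other 3, with intervals that did not touch theirs. The intervals cover counting error only and take every call as independent, although calls can share a read. The genotype difference was −1.63 points (edgeR adjusted p = 0.877). Among all promoters tested, 0.298% showed libraries 24 and 5 above the other 3 by at least 10 points, and for the 10 possible pairs of libraries this share ran from 0.0463% to 1.46%.

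Because the *Prdm16* promoter was the richest in CpGs of the set, a stretch of it is printed. This is the 200-base stretch with the most CpGs outside annotated untranslated regions, sought in the 1 kb before the start. It is the minus strand of GRCm38 chr4:154637344-154637543, upstream of the start, with the 29 CpG dyads in capitals. Its levels were 16.1% and 44.1% in Tet2+/+ and 33.3%, 4.08% and 16.7% in Tet2-/-, on 12 to 98 calls, the fewest in library 5.
Prdm16 promoter: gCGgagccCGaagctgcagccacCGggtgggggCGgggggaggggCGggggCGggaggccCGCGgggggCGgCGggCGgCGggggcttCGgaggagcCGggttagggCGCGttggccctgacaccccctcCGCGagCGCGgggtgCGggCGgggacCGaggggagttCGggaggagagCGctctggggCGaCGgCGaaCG

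Resolved in bins of 250 bp, the excess in libraries 24 and 5 at *Prdm16* held around the start but not throughout the promoter. From 750 bp before to 1250 bp after the start, library 24 lay between 26.2% and 40.9% and library 5 between 23.1% and 48.3%. In the bin from 1000 to 750 bp before the start (31 dyads), library 8 had 50%, above the 42.6% of library 24. In the bin from 750 to 1000 bp after the start, libraries 24 and 5 had 32.1% and 37.5%, whereas libraries 23, 7 and 8 had 6.56%, 1.86% and 6.15%. Neither of the 2 high libraries came near 0% or 100% in any bin of this stretch.

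**Figure D2:**
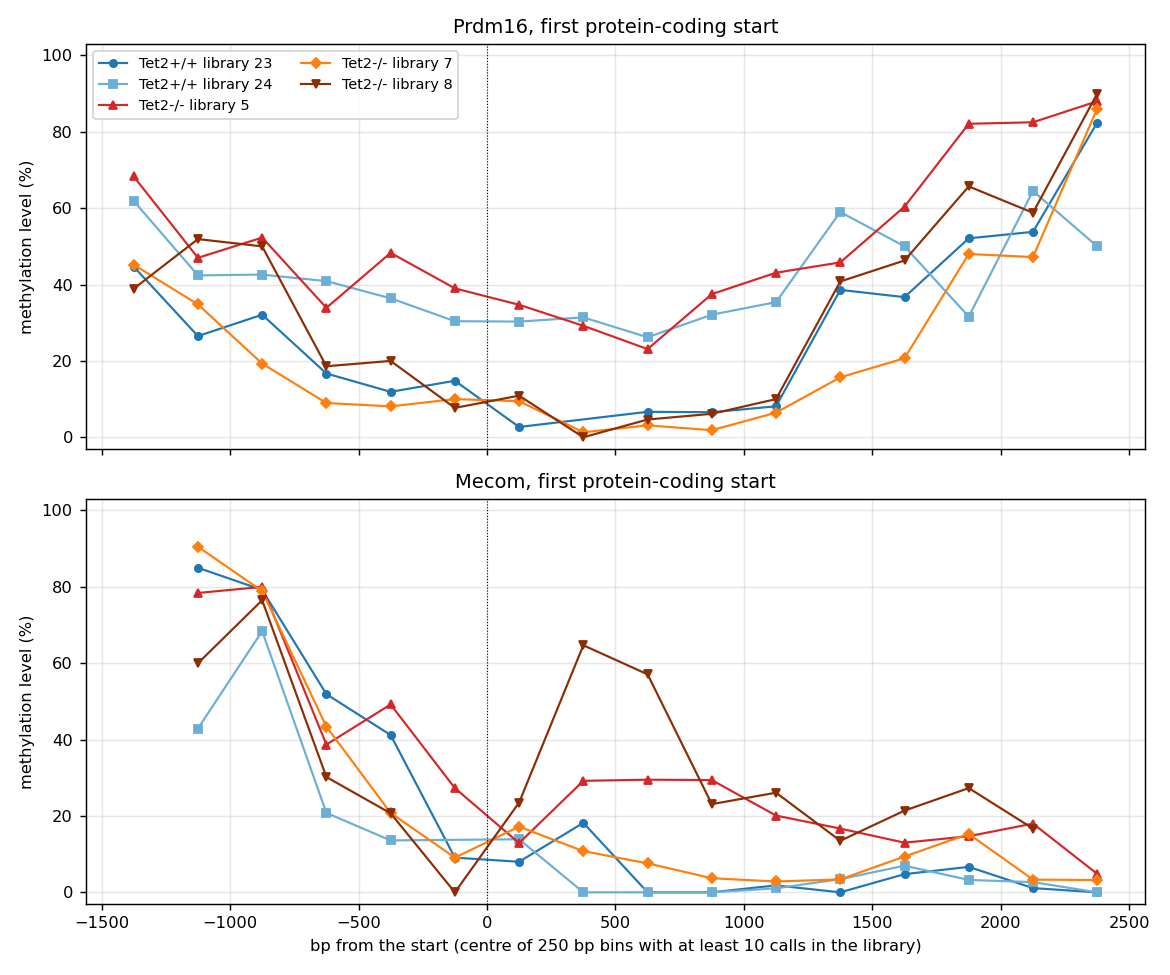
Methylation level (%) in 250 bp bins by distance from the first protein-coding start of *Prdm16* (upper panel) and *Mecom* (lower panel), a line per library, for bins with at least 10 calls. At *Prdm16* Tet2+/+ library 24 and Tet2-/- library 5 lie at 23.1% to 48.3% between −750 and 1250 bp, above the other 3 libraries, and from 250 to 1750 bp after the *Mecom* start Tet2-/- libraries 5 and 8 lie above both Tet2+/+ libraries.

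At *Mecom*, libraries of the Tet2-/- group also split downstream of the first protein-coding start, where both Tet2+/+ libraries were low. This start lies 38186 bp inside the annotated gene. Within 1 kb on each side of it (97 dyads) levels were 23.8% and 16.0% in Tet2+/+ and 32.5%, 19.3% and 32.3% in Tet2-/-. There the groups overlapped (8.11 points, edgeR adjusted p = 0.469). A 1 kb window downstream of the start (chr3:30508001-30509000, intron, 86 dyads) had 1.33% (0.452 to 3.83) and 3.18% (1.55 to 6.42) in Tet2+/+. In Tet2-/- it had 21.0% (17.3 to 25.1) in library 5, 4.31% (2.86 to 6.43) in library 7 and 21.6% (15.8 to 28.9) in library 8. The difference of 13.4 points passed the test (edgeR adjusted p = 0.0274) and rested on libraries 5 and 8, since library 7 lay within the interval of library 24. The next window (chr3:30507001-30508000, 55 dyads) rose from 3.32% and 2.26% to 11.1%, 9.51% and 16.1% (9.45 points, adjusted p = 0.0494). The first window passed when library 7 was left out (edgeR adjusted p = 0.00555) but not without library 23, 24, 5 or 8 (adjusted p of 0.109 to 0.202), and the second did not pass when any single library was left out.

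Many of these genes have more than 1 protein-coding start, and starts within 500 bp of each other were joined, which gave 25 start clusters for the 10 genes. None passed the test in edgeR or limma, against 1.41% of 30647 clusters genome-wide in edgeR, and 4 had an unadjusted p under 0.05 in edgeR, against 18.6% of all clusters, and 1 in limma, against 5557 of 30647. Groups did not overlap in 5 clusters that were higher in Tet2-/-, which is 20% of the 25, against 34.7% of all clusters, and 17 of 25 differences were positive, against 79.0%. At *Lmo2*, the methylated distal start contrasted with the proximal starts 11542 and 12143 bp downstream, which lay at 2.30% to 4.31% and at 0% to 0.864% over all 5 libraries (the 0% of library 5 allows up to 0.726%). At *Erg* the first start (7.84% to 19.0%) and the fourth, 127245 bp downstream (5.35% to 7.32%), were low, whereas the starts between them lay at 90.7% to 97.1% and 76.2% to 95.4%. The contrast between low and high starts of *Lmo2* and of *Erg* was present in all 5 libraries. The second start of *Lmo2* was the only cluster lower in every Tet2-/- library, against 3.38% of all clusters (−1.36 points, edgeR adjusted p = 0.481).

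Among the alternative starts, 2 differed by at least 10 points. The third start of *Tal1*, the bHLH factor, had 59.1% and 28.5% in Tet2+/+ and 60%, 64.6% and 59.2% in Tet2-/- (17.4 points, edgeR adjusted p = 0.266), a gap made by library 24, since the difference without it was 2.15 points. The second coding start of *Mecom* had 76.6% and 52.1% against 87.0%, 87.3% and 72.7% (18 points, adjusted p = 0.247), and the difference without library 24 was 5.77 points. The second start of *Pbx3*, in 238 dyads, had 0.877% and 1.45% against 2.25%, 6.45% and 2.80%, without overlap (2.67 points, adjusted p = 0.155).

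Across whole gene bodies the levels were higher and moved further. The mean over the 10 bodies was 51.6% and 46.5% in Tet2+/+ and 54.0%, 57.3% and 54.2% in Tet2-/-. The groups did not overlap, at 49.1% ± 3.59 (SD, n = 2) against 55.2% ± 1.85 (n = 3), a difference of 6.12 points (exact two-sided permutation p = 0.1, the smallest possible). Library 23 (51.6%) lay nearer to the Tet2-/- mean than library 24 (46.5%), so the difference was smaller without library 24. All 10 differences were positive, against 87.9% of all bodies, but after subtraction of each library's median over all bodies 4 of 10 were positive on the log2 scale, against 44.6% of all bodies. The median difference was 5.32 points in the members and 4.95 points over all 20715 bodies.

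*Hlf*, the bZIP factor of stem cells, was the only 1 of the 10 bodies past the threshold, against 15.5% of all bodies. Its body (chr11:90336536-90390895, 850 dyads) rose from 60.7% and 50.4% in Tet2+/+ to 67.6%, 74.3% and 67.5% in Tet2-/-, a difference of 14.2 points (edgeR adjusted p = 0.00592). All 3 Tet2-/- libraries lay above both Tet2+/+ libraries. With limma the adjusted p was 0.0841, and without library 24 the difference was 9.09 points (edgeR adjusted p = 0.509).

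The bodies of *Meis1* and *Erg* were also without overlap. *Meis1* had 66.2% and 57.6% in Tet2+/+ and 71.2%, 75.0% and 68.3% in Tet2-/- (9.59 points, edgeR adjusted p = 0.0772), with 5.32 points without library 24. *Erg* had 64.1% and 62.4% against 69.9%, 76.7% and 70.3% (9.06 points, adjusted p = 0.149). *Myb* had 46.6% and 33.5% against 44.9%, 48.9% and 53.6%, where library 5 lay below library 23 (9.07 points, adjusted p = 0.101). The *Myb* difference was 2.52 points without library 24 (adjusted p = 0.912) and 15.6 points without library 23 (adjusted p = 0.0259). With *Hlf*, 3 of 10 bodies had groups that did not overlap, against 46.0% of all bodies.

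The other 6 bodies differed by less. *Mecom* (5.88 points), *Prdm16* (4.76), *Tal1* (4.68), *Pbx3* (2.57) and *Lmo2* (1.28) had overlapping groups, with edgeR adjusted p of 0.339 to 0.838. Without library 24 these differences were 2.38, 3.74, 0.567, 5.81 and −2.59 points, in the same order. By both group means *Prdm16* was the most methylated body of the 10, at 69.3% to 79.5% over the libraries. It lay below *Pbx3* in library 24 (69.3% against 69.9%) and below *Erg* in library 8 (70.1% against 70.3%). *Tal1* and *Lmo2*, short genes with broad low stretches, lay at 23.3% to 33% and 36.6% to 44.4%. *Lyl1* stood alone, with a body at 0.249% to 1.93% in all 5 libraries. The body of *Lyl1* is 3.26 kb long, holds 105 dyads and overlaps *Nfix* in the annotation.

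Coverage set *Lmo2* apart. Within 500 kb of the other 9 genes each library had 0.882 to 1.32 times its autosomal mean coverage, with little spread among libraries, but around *Lmo2* library 5 had 0.755 times its mean and the others 1.09 to 1.16 times. The low coverage of library 5 ran over 106 Mb of chromosome 2 (chr2:60000001-166000000), with a median of 0.660 times that of the other libraries, against 1.02 times over the rest of the chromosome. *Pbx3* lies outside this segment. Without library 5 the *Lmo2* promoter and body had edgeR adjusted p of 0.524 and 0.791, and the part of the coverage in their levels was not tested.

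The gene bodies were then compared in 1 kb windows. Of 1616 windows in the 10 bodies, 1049 had at least 20 calls in every library, and 24 of these passed the test, all higher in Tet2-/-, which is 2.29%, against 2.55% of 544780 windows in all protein-coding bodies, 2.54% being higher. The share of called windows was therefore near the background. The median difference over the tested windows was 6.21 points, against 5.52 points for all windows, and 147 member windows had an unadjusted p under 0.05, against 16.6% of all windows. Positive differences made up 842 member windows (80.3%), against 81.1% of all windows. In 312 member windows (29.7%) all Tet2-/- libraries lay above both Tet2+/+ libraries, against 33.6% of all windows.

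*Meis1* and *Erg* held 6 called windows each, of 67 and 179 tested, *Hlf* 4 of 49, *Mecom* 3 of 343, *Prdm16* 2 of 295, *Myb* 2 of 29 and *Pbx3* 1 of 51. *Tal1*, *Lmo2* and *Lyl1* held none of 13, 19 and 4. Of the 24 windows, 18 lay in introns without an annotated exon. The middle of 7 of the 24 lay within 2 kb of an annotated transcript start of the gene. As a description of windows selected for their difference, the groups did not overlap in 21. Library 24 was the lower of the Tet2+/+ libraries in 18 of 24, and 2 windows, both in *Erg*, still passed without it. With library 24 left out the Tet2+/+ group is 1 library, assumed to vary like the Tet2-/- libraries, and calls over all genes also fell, from 209 to 0 promoters and from 3221 to 88 bodies.

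**Figure D3:**
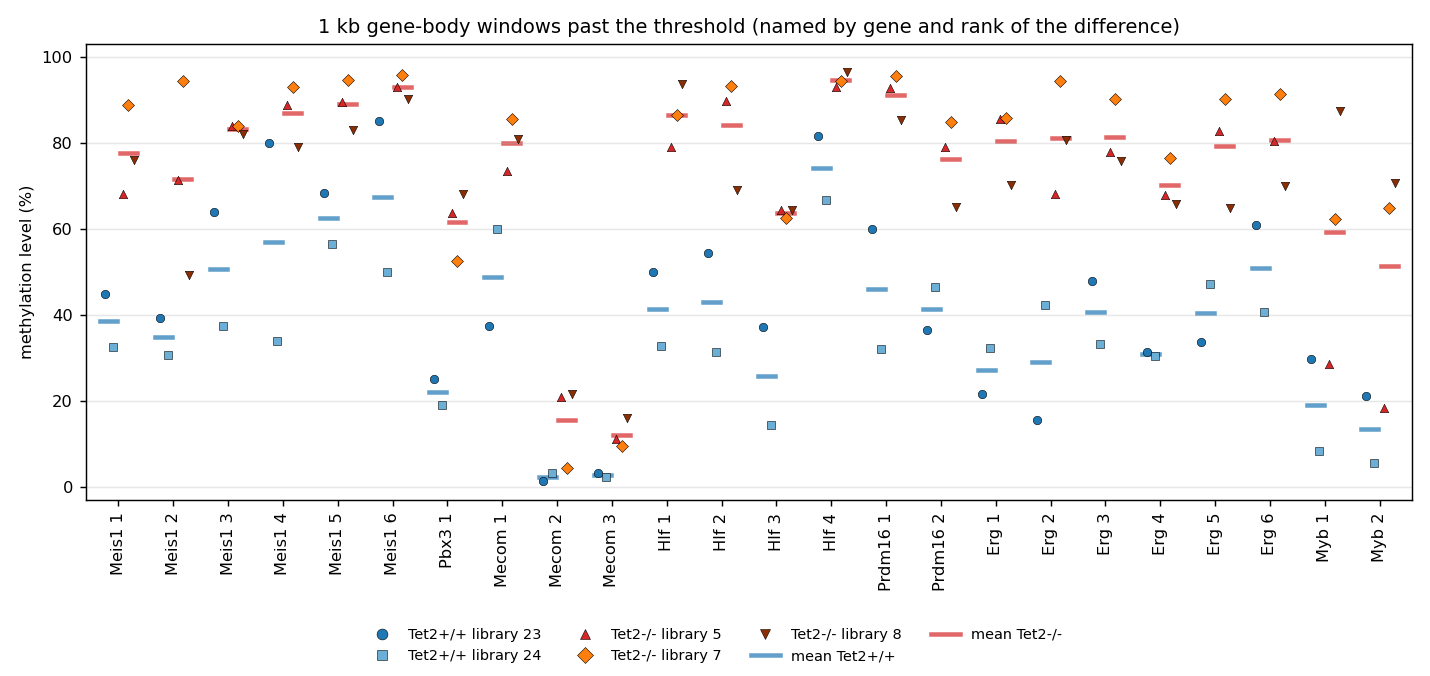
Methylation level (%) of the 24 called 1 kb windows in each library, named by gene and by rank of the difference within the gene, with horizontal bars for the group means. Differences run from 9.45 to 53.5 points, and 2 *Mecom* windows with low levels in all libraries stand apart from the others, in which at least 2 Tet2-/- libraries lie over 50%.

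The largest change was in an intron of *Erg*, the ETS factor, 41.1 kb inside the annotated gene and 15.1 kb from the nearest transcript start. The window chr16:95545001-95546000 (17 dyads, 74 to 120 calls) had 21.7% (95% Wilson interval 14.5 to 31.2) and 32.4% (24.2 to 41.8) in Tet2+/+. In Tet2-/- it had 85.5% (78.0 to 90.7), 85.8% (78.5 to 91.0) and 70.3% (59.1 to 79.5). The difference of 53.5 points (edgeR adjusted p = 2.07e-04) kept an adjusted p under 0.05 when any single library was left out, the only one of the 24 windows to do so, and had an adjusted p of 3.20e-04 with limma and 0.0202 with limma after subtraction of the library medians. A second intronic *Erg* window, chr16:95537001-95538000, rose from 15.6% and 42.3% to 68.1%, 94.5% and 80.6% (52.1 points, edgeR adjusted p = 0.00451). Another, chr16:95582001-95583000, 4.09 kb after the first start, rose from 47.9% and 33.3% to 77.9%, 90.2% and 75.7% (40.7 points, adjusted p = 0.00553).

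The CpG-richest stretch of 200 bases in each of these 3 windows is shown on the minus strand of GRCm38, which is the strand of *Erg*, with CpGs in capitals. They are printed because they lie in the windows of largest difference at this locus. In the first stretch (chr16:95545251-95545450, 6 dyads) the level was 5.26% and 15.9% in Tet2+/+ and 88.9%, 86.5% and 77.8% in Tet2-/-. In the second (chr16:95537226-95537425, 4 dyads) it was 10.0% and 26.7% against 61.5%, 100% and 84.0%, and in the third (chr16:95582551-95582750, 7 dyads) 54.4% and 24.5% against 78.7%, 87.0% and 84.2%. The second rested on 10 to 30 calls a library, with only 10 and 15 in Tet2+/+, and the third on 38 to 57.
Erg intron 1: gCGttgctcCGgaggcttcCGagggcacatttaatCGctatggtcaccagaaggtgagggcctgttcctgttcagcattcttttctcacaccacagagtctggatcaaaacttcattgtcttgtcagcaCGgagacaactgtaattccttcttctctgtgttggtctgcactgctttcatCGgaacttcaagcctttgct
Erg intron 2: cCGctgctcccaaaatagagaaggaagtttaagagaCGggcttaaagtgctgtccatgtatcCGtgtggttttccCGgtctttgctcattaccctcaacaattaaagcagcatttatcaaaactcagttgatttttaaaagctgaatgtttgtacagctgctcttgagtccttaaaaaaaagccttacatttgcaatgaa
Erg intron 3: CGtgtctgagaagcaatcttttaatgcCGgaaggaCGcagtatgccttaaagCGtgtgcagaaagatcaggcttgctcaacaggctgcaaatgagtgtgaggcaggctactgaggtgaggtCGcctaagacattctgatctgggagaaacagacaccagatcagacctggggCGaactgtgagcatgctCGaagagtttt

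In the first *Erg* stretch most calls were unmethylated in the Tet2+/+ libraries and methylated in the Tet2-/- libraries, on 19 to 45 calls a library. The other called *Erg* windows gave the same direction at smaller size, from 29.8 to 39.2 points, and 2 of them (chr16:95580001-95581000 and chr16:95579001-95580000) lay 6.09 and 7.09 kb after the first start. The same gene held a window 2.75 kb from the low start furthest downstream, chr16:95456001-95457000, which lay at 0% to 3.54% in all 5 libraries, where the calls behind the 0% of libraries 23 and 8 allow up to 3.95% and 5.45%.

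In *Hlf* the called windows lay 8.39 to 45.4 kb inside the gene. The outermost, named first here, had its middle 0.565 kb from an annotated transcript start of the gene. The window chr11:90382001-90383000 rose from 50% and 32.7% to 79.0%, 86.4% and 93.8% (45 points, edgeR adjusted p = 0.00262), and chr11:90376001-90377000 rose from 54.5% and 31.5% to 89.8%, 93.3% and 69.1% (41.1 points, adjusted p = 0.00396). Another, chr11:90350001-90351000, rose from 37.3% and 14.3% to 64.3%, 62.5% and 64.5% (38.0 points, adjusted p = 0.0351). All 3 were without overlap, and none passed without library 24. *Hlf* had the widest rise of the 10 genes, with 48 of 49 tested windows positive and a median difference of 14.2 points. The stretches of the first pair are shown on the minus strand, the strand of *Hlf*, as the CpG-richest stretches of the windows of largest difference in this gene. Their levels were 50% and 45.5% against 70.4%, 96.3% and 94.1% at chr11:90382076-90382275, and 75.0% and 62.5% against 100%, 96.6% and 81.8% at chr11:90376201-90376400. These levels rested on 16 to 27 calls a library in the first stretch and 19 to 40 in the second.
Hlf intron 1: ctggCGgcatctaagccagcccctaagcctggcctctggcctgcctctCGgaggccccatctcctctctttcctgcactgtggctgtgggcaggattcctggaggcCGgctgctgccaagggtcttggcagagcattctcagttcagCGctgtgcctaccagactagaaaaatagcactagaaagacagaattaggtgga
Hlf intron 2: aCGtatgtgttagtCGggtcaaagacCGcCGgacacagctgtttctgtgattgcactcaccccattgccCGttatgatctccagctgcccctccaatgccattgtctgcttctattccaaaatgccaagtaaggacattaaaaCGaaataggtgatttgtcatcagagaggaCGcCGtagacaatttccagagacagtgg

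In *Prdm16*, 2 of 295 windows passed (0.678%, against 2.55% of all windows), both far from its variable promoter. The window chr4:154552001-154553000, 84.4 kb inside the gene, where a non-coding gene (*Gm13133*) overlaps it, rose from 60% and 32.1% to 92.7%, 95.5% and 85.3% (45.1 points, edgeR adjusted p = 0.00464). It was the second member window to pass limma after subtraction of the library medians (adjusted p = 0.0347), and it did not pass edgeR without library 24 (adjusted p = 0.396). The window chr4:154512001-154513000 rose from 36.4% and 46.5% to 79.0%, 84.9% and 65.1% (34.9 points, adjusted p = 0.0375). The CpG-richest stretch of the first window, on the minus strand of GRCm38 chr4:154552346-154552545, had 63.6% and 26.7% against 90.9%, 100% and 89.5%. These levels rested on only 11 to 27 calls a library.
Prdm16 intron: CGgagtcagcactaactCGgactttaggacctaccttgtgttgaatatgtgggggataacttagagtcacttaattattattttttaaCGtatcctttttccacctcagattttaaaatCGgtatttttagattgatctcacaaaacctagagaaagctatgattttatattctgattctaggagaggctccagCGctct

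In *Meis1*, 4 of the 6 called windows lay 5.49 to 11.5 kb after the start, beyond its unmethylated promoter. The window chr11:19013001-19014000 rose from 64.0% and 37.4% to 84.0%, 83.9% and 82.1% (32.6 points, edgeR adjusted p = 0.0270). The 2 largest changes lay deeper in the gene, 77.5 and 88.5 kb inside. Window chr11:18941001-18942000 rose from 44.9% and 32.5% to 68.2%, 88.9% and 76.0% (39.0 points, adjusted p = 0.0246), and chr11:18930001-18931000 from 39.2% and 30.6% to 71.4%, 94.4% and 49.2% (36.8 points, adjusted p = 0.0326). These 3 did not overlap between groups, and a window at chr11:18924001-18925000 stayed at 1.25% to 6.02% in every library.

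In *Myb* the groups overlapped in both called windows, and the Tet2-/- libraries split. Window chr10:21145001-21146000 had 29.8% and 8.40% in Tet2+/+ and 28.5%, 62.3% and 87.5% in Tet2-/- (40.3 points, edgeR adjusted p = 0.0215). Window chr10:21156001-21157000, 4.48 kb after the start, had 21.1% and 5.66% against 18.4%, 64.9% and 70.6% (37.9 points, adjusted p = 0.0338). The middles of these windows lay 1.26 and 0.145 kb from the nearest annotated transcript start of the gene. Libraries 7 and 8 were high in both, and library 5 lay between the Tet2+/+ libraries. *Pbx3* had a single called window, chr2:34235001-34236000, which rose from 25% and 19.0% to 63.6%, 52.6% and 68.2% (39.5 points, adjusted p = 0.0275). In *Mecom* the third called window, chr3:30106001-30107000, rose from 37.5% and 60% to 73.5%, 85.5% and 81.0% (31.2 points, adjusted p = 0.0462).

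The genes of the bHLH factors and their LIM adaptor held no called window. They had 13 (*Tal1*), 19 (*Lmo2*) and 4 (*Lyl1*) tested windows. At the share of 2.55% called over all windows, so few tested windows cannot show a lack of calls. The largest non-overlapping difference in *Tal1* was at chr4:115060001-115061000, with 59.4% and 41.5% against 63.3%, 84.5% and 64.3% (20.3 points, edgeR adjusted p = 0.293). In *Lmo2* it was at chr2:103978001-103979000, with 67.3% and 60% against 73.3%, 88.2% and 78.8% (16.4 points, adjusted p = 0.315). *Lyl1* had no window in which the groups separated, and all 4 of its windows were low. *Tal1* also held a CpG-rich window 7.07 kb after its start that stayed at 0.445% to 2.54% (chr4:115063001-115064000, 81 dyads).

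Active enhancers in gene bodies are usually low in methylation. In the member bodies 96 tested windows over 2 kb from any annotated start of the gene had a mean level of under 50%. Of these, 76 had a positive difference and 2 passed the test (2.08%), with a median difference of 7.63 points. The share over all bodies was not counted at this distance. Counted at any distance from a start, 105 of 140 member windows under 50% were positive (75.0%), against 77.8% of 63528 such windows in all bodies, with median differences of 6.02 and 5.47 points and 4.29% and 4.25% called higher. In *Pbx3* the lowest was chr2:34360001-34361000, at 8.33% to 11.4%, and in *Mecom* chr3:30105001-30106000, at 6.78% to 27.1%. In *Prdm16* chr4:154519001-154520000 lay at 5.06% to 24.4%, and in *Lmo2* chr2:103962001-103963000 at 12.8% to 52.7%. In *Hlf* the window with the lowest mean over the 5 libraries (chr11:90371001-90372000) had 33.3% and 36.4% in Tet2+/+ and 54.7%, 62.3% and 52.8% in Tet2-/- (21.7 points, edgeR adjusted p = 0.240).

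By CpG content, 12 of 889 member windows with under 20 dyads were called (1.35%, against 2.15% of all such windows), 10 of 140 with 20 to 49 dyads (7.14%, against 5.69%), and 2 of 20 with at least 50 dyads (10.0%, against 2.60%), both of the last in *Mecom*. By level, 20 of the 24 had a mean between 20% and 80%, which is 3.28% of 609 windows, against 5.10% of all windows in that range. Called windows were searched on both strands for short motifs, of which the search for GATA factors used the letters AGATAA, found in 12 of 24 (50%, against 42.3% of all windows). The ETS letters CCGGAAG were in 2 (8.33%, against 5.09%), namely the first named window of *Hlf* and the third of *Erg*. The RUNX letters TGTGGT were in 10 (41.7%, against 56.0%), the E-box CAGCTG in 7 (29.2%, against 41.4%) and the CEBP letters TTGCNNAA in 7 (29.2%, against 33.6%). A match is a stretch of letters and not evidence of binding.

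Around the starts, the low-methylated centre and its borders were then compared separately. The first protein-coding start of each gene was profiled in 1 kb bins from 10 kb before to 10 kb after it, a zone was the run of bins with a mean under 20% over the 5 libraries, and an edge was the 2 bins beyond the zone on each side. All but *Lmo2*, whose distal start is methylated, had a zone. Zones ran from 1 kb in *Prdm16* and *Erg* to 5 kb in *Myb* and 10 kb in *Lyl1*.

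**Figure D4:**
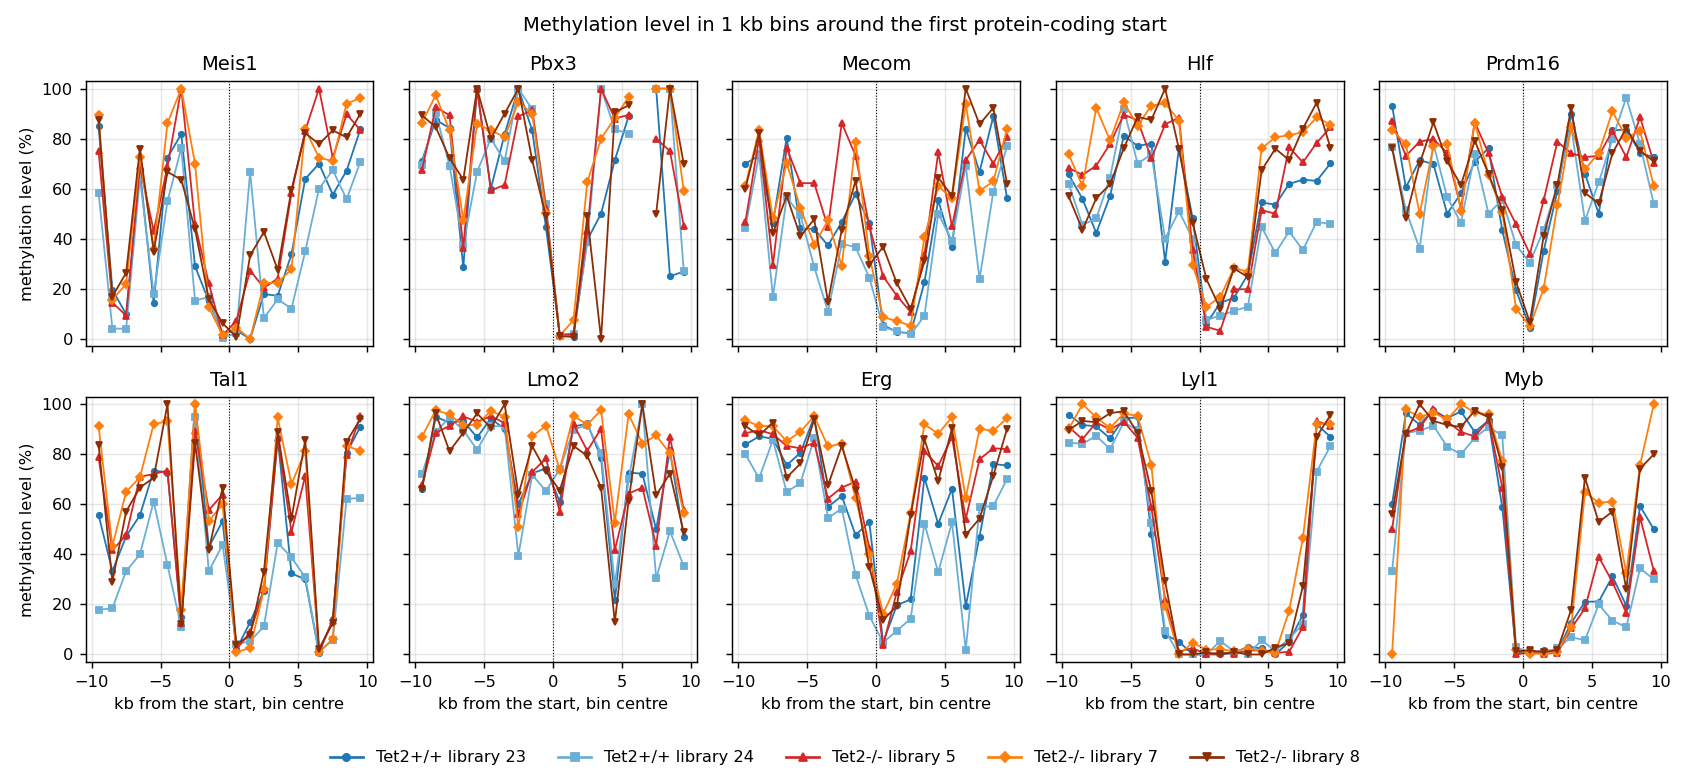
Methylation level (%) in 1 kb bins from 10 kb before to 10 kb after the first protein-coding start (dotted line) of each gene, a line per library. The dip at the start is shared by all libraries in 9 genes and absent in *Lmo2*, and it is 10 kb wide in *Lyl1* and 1 kb wide in *Prdm16* and *Erg*. In *Lyl1* the dip runs past the 3′ end of the gene.

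Inside the zones the mean over 9 genes was 4.23% and 7.0% in Tet2+/+ and 8.56%, 6.65% and 8.76% in Tet2-/-. The groups overlapped (5.61% ± 1.96 against 7.99% ± 1.17, exact permutation p = 0.3), and 6 of 9 differences were positive, against 74.6% of all genes with a zone. Only in *Mecom* were the groups apart, against 29.2% of all genes with a zone, at 3.45% and 3.03% against 17.1%, 7.10% and 21.4%. *Myb* stayed at 0.873% to 2.03% and *Pbx3* at 0.894% to 4.50%.

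At the edges the mean was 40.5% and 33.8% in Tet2+/+ and 48.8%, 51.6% and 48.9% in Tet2-/-. The groups did not overlap (37.1% ± 4.75 against 49.8% ± 1.60), with a difference of 12.6 points and an exact permutation p of 0.1. Edges of 7 of 9 genes were higher in every Tet2-/- library, against 55.1% of 11660 protein-coding genes with a zone, and 8 of 9 differences were positive, against 92.8%. The median edge difference was 12.7 points in the members and 8.53 points over all genes, some of which share a start region. Without library 24, and with zones set again from the remaining libraries, the mean edge difference was 8.86 points.

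*Myb* had the largest edge difference, from 41.3% and 40.7% to 54.7%, 72.5% and 69.9% (24.7 points). *Meis1* followed with 25.5% and 17.0% against 35.2%, 48.1% and 44.1% (21.3 points), *Tal1* with 56.2% and 29.9% against 58.5%, 61.6% and 57.6% (16.2 points) and *Erg* with 28.5% and 14.1% against 39.3%, 37.8% and 31.6% (15.0 points). With the zones unchanged, the edge difference without library 24 was 3.04 points in *Tal1* and 7.76 in *Erg*, whereas it was 24.4 in *Myb* and 17.0 in *Meis1*. The downstream border of the *Meis1* zone rested on a bin of 4 dyads with as few as 3 calls in a library. Library 24 had 66.7% in that bin. *Lyl1*, low over 10 kb, had an edge of 57.7% and 55.3% against 59.7%, 76.1% and 67.5% (11.3 points). Its zone ran to 7 kb after the start, past the 3′ end of this gene of 3.26 kb, so its downstream edge lay outside the gene. The bin of its zone furthest upstream had 7.89% and 9.52% against 21.9%, 19.4% and 29.2%. In *Mecom* the groups overlapped, with 41.8% and 24.3% against 51.5%, 46.6% and 39.2% (12.7 points, and 3.92 without library 24). *Prdm16* had the only negative edge difference, with 35.1% and 46.7% against 55.0%, 26.2% and 38.5% (−0.981 points), where libraries 24 and 5 were again the highest.

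**Figure D5:**
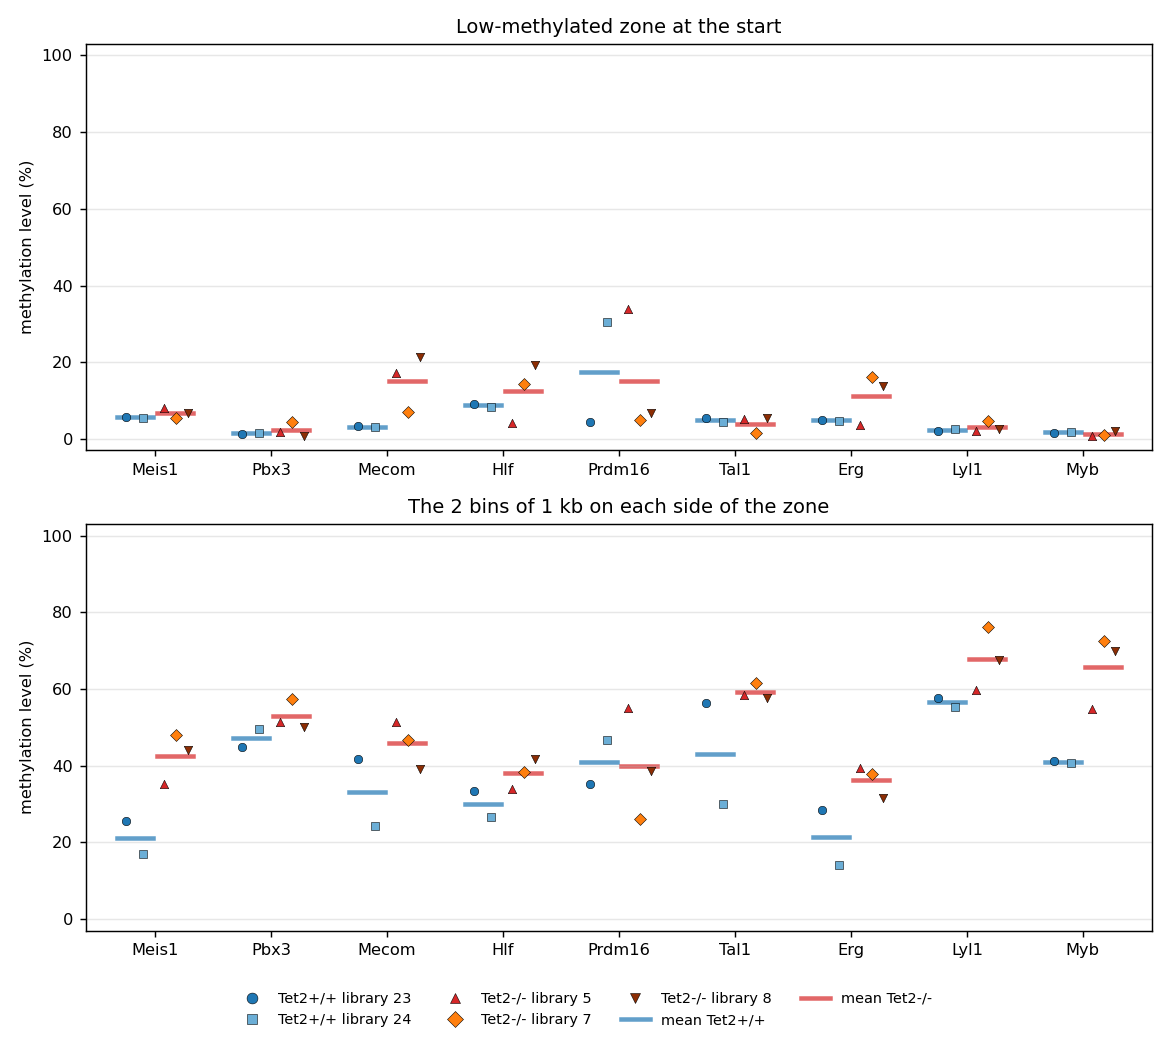
Methylation level (%) of the low-methylated zone at the start (upper panel) and of its edges (lower panel) in each library for the 9 genes with a zone, with horizontal bars for the group means. Zone levels lie under 22% except in *Prdm16* libraries 24 and 5, and edge levels are higher in all Tet2-/- libraries in 7 genes.

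Genes that act with these factors were compared as a list of 22 partners, and their relatives by sequence as a list of 18 paralogs. No partner promoter passed the test in edgeR or limma, against 1.07% of all promoters, and 3 of 22 had an unadjusted p under 0.05 in edgeR, against 18.1% (median difference 0.267 points, against 2.22 for all promoters). The largest were *Nkx2-3*, a homeobox gene, with 21.5% and 15.0% against 35.6%, 33.7% and 35.8% (16.8 points, edgeR adjusted p = 0.0946), and *Hoxa9*, the HOX partner of MEIS1 and PBX3, with 17.3% and 8.37% against 19.6%, 28.8% and 29.7% (13.2 points, adjusted p = 0.191). Of partner bodies 4 of 22 passed, all higher, against 15.5% of all bodies. These were *Gfi1*, a zinc-finger repressor (16.3 points, adjusted p = 0.00198, overlapping groups), *Hoxa9* (16.3% and 12.0% against 22.4%, 20.9% and 32.3%, 11.1 points, adjusted p = 0.00206), *Spi1*, the myeloid ETS factor (11.1 points, adjusted p = 0.0373), and *Tcf4*, a bHLH dimer partner (10.8 points, adjusted p = 0.0390). With limma none of the 4 passed (adjusted p of 0.0877 to 0.167). The body of *Spi1* lies in the chromosome 2 segment of low coverage in library 5.

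Among paralogs 1 of 18 promoters passed, that of *Meis2*, the close relative of *Meis1*, against 1.07% of all promoters, and 1 of 18 bodies passed, against 15.5% of all bodies. It rose from 3.15% and 2.39% to 13.3%, 10.9% and 15.4% (10.4 points, edgeR adjusted p = 0.0420) without overlap, whereas the *Meis1* promoter lay at 1.33% to 3.86%. *Meis2* lies in the chromosome 2 segment too, and its promoter did not pass when any single library was left out. The body of *Lmo1*, the relative of *Lmo2*, rose from 58.1% and 50.2% to 63.2%, 64.4% and 67.5% (10.9 points, edgeR adjusted p = 0.0365, limma 0.128), and that of *Meis3* had the largest difference of the list (12.4 points, adjusted p = 0.0720). Median differences were 1.2 points in paralog promoters and 5.15 points in paralog bodies, against 2.22 and 4.95 points genome-wide. Without library 24 no partner or paralog feature named here passed (adjusted p of 0.357 to 0.901), and the difference in the *Gfi1* body was 3.30 points, in *Tcf4* 5.53, in *Spi1* 6.43, in *Lmo1* 6.91 and in *Hoxa9* 8.90.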

How the data were processed

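Blast DNA was bisulfite converted, and libraries were made by random priming (Pico Methyl-Seq) and sequenced. By the submitters' processing notes and the published methods, the authors trimmed reads with Trim Galore 0.4.3, checked them with FastQC 0.11.7, aligned them to GRCm38 (mm10) with Bismark 0.19.1 and Bowtie 2 in non-directional mode and removed duplicates. For every CpG cytosine the authors deposited 2 raw counts, of methylated and of unmethylated calls. Intervals and floors cover counting error only and take calls as independent, so calls that share a read make them too narrow. Non-directional alignment and random priming bear on single CpGs at ends of reads, which were not corrected further.

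Here, strands were summed per dyad (all 21353092 positions were CG in GRCm38). Promoters, start clusters, bodies and 1 kb windows of all protein-coding genes (GENCODE vM21) entered the test where each library held 20 calls or more. edgeR 4.0.16 (R 4.3.3) was used. The model held a coefficient per library, for methylation and for methylation by genotype, with trended dispersion and the quasi-likelihood test, and p was adjusted by Benjamini-Hochberg over each whole table at 0.05. Means over members had an exact permutation test over 10 splits. Alternatives were limma 3.58.1 on log2((methylated + 2)/(unmethylated + 2)), with or without subtraction of library medians, other minimums, region sizes and zone limits, and leaving out each library. Scripts were tested on simulated data. Sequences were read from the GRCm38 assembly, outside annotated untranslated regions.

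The members and lists were chosen with earlier results of these data known. Named were all members, alternative starts past the threshold or differing by 10 points, and up to 3 called windows per member and direction (otherwise the largest non-overlapping). Up to 3 low windows per member were named too, and partners and paralogs past the threshold plus the 2 largest. Further *Meis1* and *Erg* windows and the other alternative starts of *Pbx3*, *Mecom*, *Lmo2* and *Erg* were named after their values were seen. The 5 libraries are labelled as separate samples, with no batch named. The edgeR p-values compare the genotype difference with the spread among these libraries, modelled with a trend over all regions. The paper describes several recipients for each donor mouse, and whether libraries of a genotype share a donor is not given in the sources used here.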

Additional observations from a re-analysis of the deposited data

How the results depend on the processing

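No paired analysis was possible because the groups share no library numbers. The count of called members stayed at 0 for promoters and start clusters under every alternative. For bodies the count of 1 became 0 with limma, with or without subtraction of library medians, and ranged from 0 to 2 when single libraries were left out (0 without library 24, 2 without library 23). For 1 kb windows the count of 24 became 3 with limma after subtraction of library medians (2 higher, 1 lower, the latter a *Mecom* window at −19.1 points) and ranged from 2 to 21 when single libraries were left out. It was 2 without library 24 and 12 without library 7, and with all bodies' windows the count fell from 13882 to 1332 without library 24. Subtraction of library medians changed the median log2 odds difference of all windows from 0.604 to −0.0909 and left 1989 called windows, 1752 of them higher. It left 40 called promoters, 34 higher, and 6 called bodies, 5 higher.

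Signs turned for single genes, of which none had passed the test in that region. With 500 bp flanks the promoter difference was 0.867 points in *Pbx3*, 0.651 in *Prdm16* and −0.141 in *Tal1*. With 2000 bp flanks it was −0.0823 in *Tal1* and −0.271 in *Lyl1*. After subtraction of library medians the log2 difference was −0.282 in *Hlf*, −0.375 in *Tal1* and −0.123 in *Erg* promoters. It was −0.255, −0.0358, −0.0595, −0.0849, −0.341 and −0.447 in the bodies of *Pbx3*, *Mecom*, *Prdm16*, *Tal1*, *Lmo2* and *Lyl1*. When single libraries were left out, 8 differences turned sign and ranged from −2.61 to 6.34 points (*Hlf*), −12.0 to 8.78 (*Prdm16*), −0.474 to 1.2 (*Tal1*), −2.30 to 7.38 (*Erg*) and −0.868 to 0.249 (*Myb*) in promoters, and from −0.678 to 5.81 (*Pbx3*), −2.59 to 5.14 (*Lmo2*) and −0.564 to 0.764 (*Lyl1*) in bodies. The cause was not tested.

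Depth of 2.96 to 5.19 calls per dyad allowed 64.9% of member windows to be tested, and the exact test of means over members could not go below 0.1. Those means kept their direction in all alternatives run, at 1.90 to 2.99 points in promoters, 3.58 to 8.66 in bodies, 0.993 to 3.79 in zones and 8.86 to 16.0 at edges.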
